A study of Oncorhynchus mykiss with 32 samples.

Results

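Of the 9023 rainbow trout cDNA clones on the array, 3 were followed by name: delta-6 desaturase (clone 1RT28E12_C_C06), 6-phosphogluconate dehydrogenase (6-PGD, clone tcac0006.o.18) and the alpha subunit of the mitochondrial trifunctional enzyme (ECHA, clone 1RT85A15_A_A08). All 3 had a value on each of the 32 arrays and were among the 7763 clones tested, those with at least 5 values in every group. The clones take their names from protein matches in the additional files of the study, which list clones the study had called on livers of this same trial. Their changes are therefore no independent support for one another.

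The livers came from 2 lines of rainbow trout obtained by 3 generations of divergent selection on muscle fat content, a lean muscle line (L) and a fat muscle line (F). Fish of both lines received a diet with 10% lipid (LE, low energy) or 23% lipid (HE, high energy) for 6 months, starting when they first fed. Each of the 4 groups (F-LE, F-HE, L-LE and L-HE) was kept in 3 tanks and is represented by 8 livers, each hybridized to its own nylon membrane. Both lines were selected, so no unselected fish served as control, and the diets shared a fishmeal base to which fish oil was added for HE. By the study's account HE also held less protein and starch and a different balance of polyunsaturated fatty acids. The amount of lipid was therefore not the only difference between the diets. The study describes fewer hybridized livers per group than the series holds and does not name them, so all livers were used.

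Delta-6 desaturase introduces the double bond with which 18-carbon dietary fatty acids enter the route to highly unsaturated fatty acids. 6-PGD is an oxidative step of the pentose phosphate pathway and yields NADPH, which fatty acid synthesis consumes. ECHA carries the hydratase and long-chain hydroxyacyl-CoA dehydrogenase activities of the trifunctional enzyme, which shortens fatty acids in mitochondria. In vertebrate liver the first 2 enzymes stand on the synthesis side of fatty acid metabolism and the third on the oxidation side.

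Both synthesis genes were also measured by real time RT-PCR in the study. The primers are shown as the designed sequences for those gene names, written 5′ to 3′. The database entry behind the delta-6 desaturase pair was not matched to the followed clone. RT-PCR values were not used here.
delta-6 desaturase forward: agggtgcctctgctaactgg
delta-6 desaturase reverse: tggtgttggtgatggtaggg
6-PGD forward: gtgccgtctgtgtctctga
6-PGD reverse: ctgtgactgggttggtgatg
The expected products were 175 and 234 bases long.

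Values are log2 signals relative to the median clone of the same array, so 0 is the array median. The deposited values are logarithms to base 10, as the ratio formula of the methods implies, and were converted. Levels of different clones cannot be set against each other, since each spot has its own probe. The liver label was checked on 11 clones of secreted hepatocyte proteins such as apolipoprotein A-I and complement C3, whose mean levels over the groups lay between 3.33 and 6.46 above the array median. The muscle clones parvalbumin and titin also lay above it (means of 4.33 and 3.91 in L-LE), and only clones the study had called carry names. This check therefore cannot tell liver from muscle. One array stood far apart. Membrane 59, from an F-HE fish of tank 3, had a median Spearman correlation of 0.16 with the other arrays, against 0.83 to 0.97 for the other 31. The next lowest were membranes 62 (F-LE, 0.83), 65 (F-HE, 0.84) and 68, 53 and 56 (L-LE, 0.85, 0.86 and 0.90). With membrane 59 these are the 6 arrays of low correlation. The lowest L-HE array was at 0.94, so the diets of the lean line differed in array quality. The 11 hepatocyte clones summed to 5.82 (log2) on membrane 59 and to between 8.04 and 8.91 in the other 3 groups. The diet and line results of the 3 clones are given with and without membrane 59.

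Mean levels of all 3 clones were lower with the lipid-rich diet. Over both lines, delta-6 desaturase was 2.19-fold lower, 6-PGD 2.16-fold lower and ECHA 1.65-fold lower, and without membrane 59 the values were 1.80-fold, 2.02-fold and 1.35-fold. Only 6-PGD passed the test on all 32 arrays, and all 3 passed it without membrane 59. Between lines no clone passed. The test was limma with Benjamini-Hochberg adjustment over all tested clones, with a call at an adjusted p under 0.15. On all arrays it called 0.232% of clones lower on HE, so 1 member of 3, and without membrane 59 it called 0.503% lower, so all 3. These members were picked among clones already called for diet, and their count is not a result beyond that choice. The exact permutation p-values for diet given below, over livers and over tanks, do not account for that choice either. The study had also called 6-PGD for line, so the line values of 6-PGD share this limit. Exact tests within a single line or on a single diet permute livers and leave the tank out of account. Since livers were taken whole, a lower level can mean less transcript per cell or fewer cells that carry it, which cannot be told apart.

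**Figure D1:**
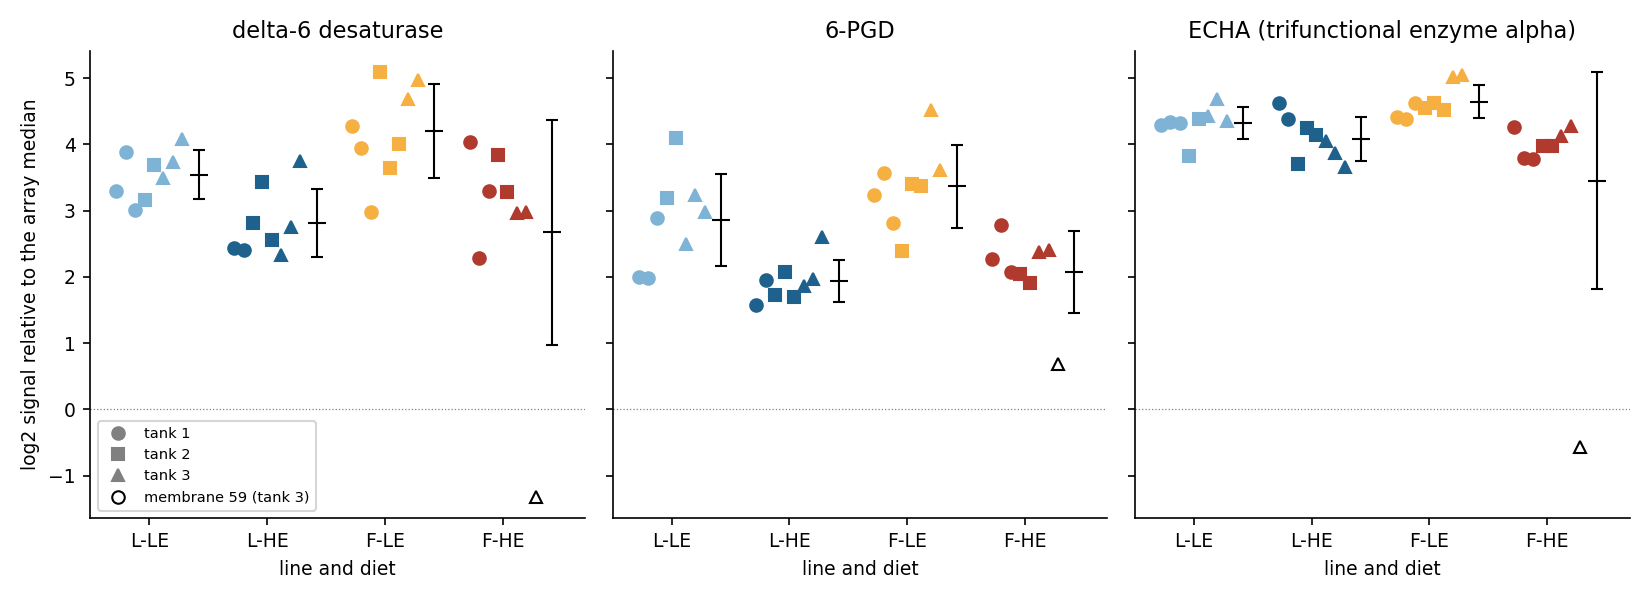
Level of delta-6 desaturase, 6-PGD and ECHA in each liver (log2 signal relative to the array median), by line and diet, with 8 livers per group. Marker shapes are tanks, the open marker is membrane 59, and the black bar is the mean ± SD of all 8. For 6-PGD all L-HE livers lie below the mean of L-LE (2.86), and for ECHA all F-HE livers lie below all F-LE livers.

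Delta-6 desaturase was highest in fat-line fish on the low-lipid diet. In F-LE the lowest, median and highest livers were at 2.97, 4.14 and 5.09. In L-LE they were at 3.02, 3.59 and 4.08. In L-HE they were at 2.33, 2.66 and 3.75. The L-HE group therefore sat mostly below both LE groups, with 6 of its 8 livers under the lowest L-LE liver. In F-HE the lowest, median and highest values were −1.32, 3.13 and 4.04. The lowest of these was membrane 59, and the next was at 2.29. The group means were 4.20 ± 0.71 (SD, n = 8) in F-LE, 3.54 ± 0.37 in L-LE, 2.81 ± 0.52 in L-HE and 2.67 ± 1.70 in F-HE. Without membrane 59 the F-HE mean was 3.24 ± 0.59 (n = 7), which moved it above L-HE.

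The diet difference of delta-6 desaturase, HE minus LE over both lines, was −1.13 (log2, SE 0.33), with a limma adjusted p of 0.424. Without membrane 59 it was smaller, −0.85, but its SE fell to 0.19 and the adjusted p was 0.0329. Within the L line the difference was −0.73 (SE 0.22) in a two-sided exact permutation test of 8 against 8 livers (p = 0.00855, and 0.0205 after Benjamini-Hochberg over 12 comparisons). An L-LE liver was the higher of the pair in 55 of 64 pairs. Within the F line the difference was −1.53 (SE 0.65, exact p = 0.00808), and again the LE liver was higher in 55 of 64 pairs. Without membrane 59 the F-line difference was −0.96 (SE 0.34, exact p = 0.0169), with 47 of 56 pairs. Thus both lines showed lower delta-6 desaturase on HE with or without this array, although the groups overlapped in each line. In limma over all clones neither within-line difference passed (adjusted p = 0.769 in L and 0.651 in F).

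6-PGD gave the firmest diet difference of the 3. In L-LE the lowest, median and highest livers were at 1.99, 2.94 and 4.10. In L-HE they were at 1.58, 1.91 and 2.6. Of the L-LE livers 5 of 8 lay above every L-HE liver. In F-LE the values were 2.40, 3.39 and 4.52. In F-HE they were 0.69, 2.18 and 2.79, and the lowest was again membrane 59, with the next liver at 1.91. Of the F-LE livers 7 of 8 lay above every F-HE liver. Group means ran from 3.37 ± 0.62 (SD, n = 8) in F-LE over 2.86 ± 0.70 in L-LE to 2.07 ± 0.62 in F-HE and 1.94 ± 0.32 in L-HE. Without membrane 59 the F-HE mean was 2.27 ± 0.29 (n = 7).

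Over both lines 6-PGD was −1.11 (log2, SE 0.20) on HE against LE, the second smallest p of 7763 clones, with a limma adjusted p of 0.0161. Without membrane 59 the difference was −1.01 (SE 0.18, adjusted p = 0.0115). In the L line it was −0.92 (SE 0.27, exact permutation p = 0.00389), and the LE liver was higher in 59 of 64 pairs. In the F line it was −1.30 (SE 0.31, exact p = 0.000466), with 62 of 64 pairs. Leaving out membrane 59 gave −1.10 (SE 0.25, exact p = 0.0014) in F, with 54 of 56 pairs. In F the livers of both diets hardly overlapped, while in L 3 of the 8 LE livers lay within the HE range. In limma over all clones the F-line difference was called (adjusted p = 0.133, where 0.0515% of clones were called), and without membrane 59 its adjusted p was 0.182. The L-line difference was not called (adjusted p = 0.769).

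ECHA spread over a narrow range within groups, apart from membrane 59. In L-LE the lowest, median and highest livers were at 3.82, 4.35 and 4.69. In L-HE they were at 3.66, 4.09 and 4.62, which overlaps L-LE over most of its range. In F-LE they were at 4.39, 4.59 and 5.04. In F-HE the values were −0.57, 3.98 and 4.28, where membrane 59 was the lowest and the next liver stood at 3.78. Every F-HE liver was thus below every F-LE liver. Among 7543 clones measured in all livers of the F line, 0.053% had each LE liver above each HE liver. In the L line that share was 0.0265%, and no member was among them. The group means were 4.65 ± 0.25 (SD, n = 8) in F-LE, 4.33 ± 0.24 in L-LE, 4.09 ± 0.33 in L-HE and 3.45 ± 1.64 in F-HE. The last was 4.03 ± 0.20 (n = 7) without membrane 59, next to L-HE.

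The diet difference of ECHA over both lines was −0.72 (log2, SE 0.29), with a limma adjusted p of 1. Without membrane 59 it shrank to −0.43, a change of over 1.5 times, while the SE fell to 0.10 and the adjusted p to 0.0403. In the F line the difference was −1.19 (SE 0.59) with an exact permutation p of 0.000155, the smallest that 8 against 8 livers can give. Without membrane 59 it was −0.62 (SE 0.12), at the same exact p, with the LE liver higher in 56 of 56 pairs. In the L line it was −0.24 (SE 0.15, exact p = 0.116), with 48 of 64 pairs. With quantile normalization the L-line test passed before adjustment only (exact p = 0.0289, adjusted 0.0578). On percentile ranks it passed before and after adjustment (exact p = 0.0244, adjusted 0.0488). It also passed, unadjusted, without membrane 53, an L-LE liver (−0.32, exact p = 0.0387), or without membrane 23, an L-HE liver (−0.32, exact p = 0.0336). In limma over all clones neither within-line difference of ECHA was called (adjusted p = 0.751 in F, 0.182 there without membrane 59, and 0.871 in L). Whether the diet difference itself differed between lines was tested by the interaction, which ECHA did not pass.

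**Figure D2:**
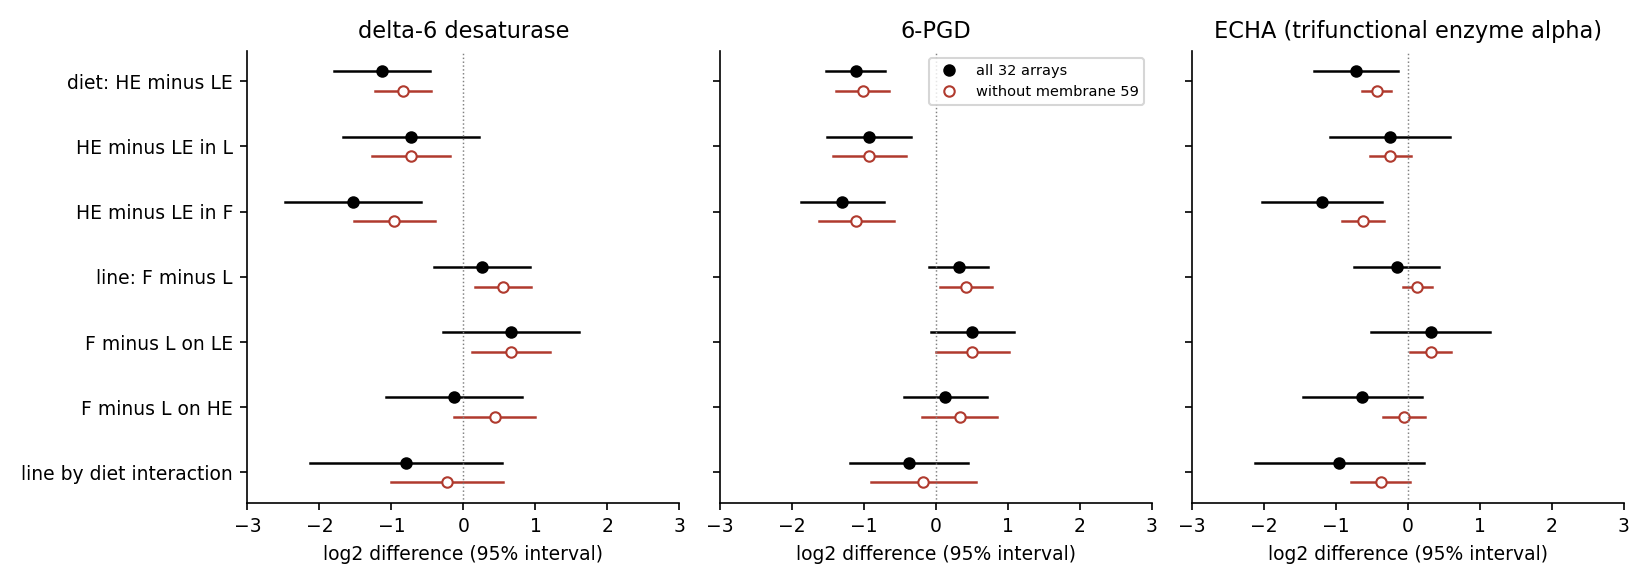
Differences between groups for the 3 clones (log2, points) with 95% confidence intervals from limma, on all 32 arrays (filled) and without membrane 59 (open). Leaving out membrane 59 narrows all intervals, brings the ECHA diet difference from −0.72 to −0.43 and turns its line difference from −0.16 to 0.13.

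The 3 line by diet interactions, the F-line diet difference minus the L-line one, were −0.80 (SE 0.66) for delta-6 desaturase, −0.37 (SE 0.40) for 6-PGD and −0.95 (SE 0.58) for ECHA. No interaction was called, with limma adjusted p-values of 0.560, 0.620 and 0.548. Without membrane 59 they were −0.23 (SE 0.38), −0.17 (SE 0.36) and −0.37 (SE 0.20), and the 95% interval for ECHA ran from −0.78 to 0.03. Over all 7763 clones limma called 0% for the interaction, and 523 had an unadjusted p under 0.05. Without membrane 59 again none was called, and 355 of 7759 had such a p, a share smaller than 0.05.

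Between lines the synthesis members were higher in F by estimates that did not pass. F minus L over both diets was 0.26 (log2, SE 0.33) for delta-6 desaturase and 0.32 (SE 0.20) for 6-PGD. Without membrane 59 these became 0.55 (SE 0.19) and 0.42 (SE 0.18), with limma adjusted p-values of 0.726 and 0.899. For ECHA the line difference was −0.16 (SE 0.29) on all arrays and 0.13 (SE 0.10) without membrane 59, so its sign rested on that membrane. Limma called 0% of the 7763 clones between lines on all arrays, with 258 at an unadjusted p under 0.05. The two-way analysis of variance named in the methods, rerun here on all arrays with membrane 59 included, put 53 of the 7763 clones under 0.01. The counts of 258 and 53 are smaller shares of the clones than these thresholds. Under 0.01 the study itself reports more transcripts for line, from fewer livers per group. The reason for this difference was not tested. Without membrane 59 limma called 1 of 7759 clones between lines, not a member. An unadjusted p under 0.05 was then found for 417 clones, a share slightly larger than 0.05.

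On the LE diet alone, where membrane 59 plays no part in the exact test, the mean of each member was higher in F, though limma called none of the 3 differences (adjusted p = 0.962 for each). The difference was 0.66 (SE 0.28, exact permutation p = 0.0384) for delta-6 desaturase, which was 0.0658 after adjustment over the 12 comparisons. For ECHA it was 0.32 (SE 0.12, exact p = 0.0145, adjusted 0.0289), and an F-LE liver was the higher in 56 of 64 pairs. For 6-PGD it was 0.51 (SE 0.33, exact p = 0.149). Ranking each clone within its own array weakened the first of these to an exact p of 0.224 and the second to 0.0810. On HE no line difference passed, with values of −0.14, 0.14 and −0.63 and exact p-values of 0.930, 0.623 and 0.355 in the order delta-6 desaturase, 6-PGD and ECHA. Without membrane 59 the values were 0.43, 0.33 and −0.06, with exact p-values of 0.15, 0.0564 and 0.708.

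In the order of group means, F-LE stood first and L-LE second for each of the 3 clones. The step from F-LE to L-LE passed the exact test for ECHA and, before adjustment only, for delta-6 desaturase. The lean-line step from LE to HE passed for delta-6 desaturase and 6-PGD and not for ECHA. These exact tests permuted livers and left the tank out of account, although diets were given to tanks. In limma on tank means the lean-line diet difference was called for no clone. For 6-PGD the third place was that of F-HE, whose range overlapped the L-LE range, and this step was not tested. The 2 HE groups took the lower places, and the step between them passed for none of the 3.

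Diets were given to tanks, so the difference was also taken over the 12 tank means, with the diets of the 6 tanks of each line permuted within the line. The diet difference of tank means was −1.13 for delta-6 desaturase and −1.21 for 6-PGD, both at an exact permutation p of 0.005, the smallest that 400 arrangements can give. For ECHA it was −0.67 (exact p = 0.025). Without membrane 59 the 3 values were −0.89 (p = 0.005), −1.11 (p = 0.005) and −0.41 (p = 0.035), all exact. The ECHA difference of tank means was −0.17 in L and −1.18 in F, or −0.65 in F without membrane 59. Fitted with limma over 7727 clones, the same tank means called no clone for diet, and the adjusted p of 6-PGD was 0.288. An unadjusted p under 0.05 was found for 274 clones, a share smaller than 0.05. This fit includes membrane 59 and was not run without it. In limma over livers, such a p for diet was found for 283 of 7763 clones on all arrays and 578 of 7759 without membrane 59. The lowest of the 6 LE tank means of 6-PGD, 2.29 in tank 1 of L-LE, lay below the highest of the HE ones, 2.38 in tank 1 of F-HE. Tank means of 6-PGD in L-LE ran from 2.29 to 3.65, a spread wider than that of the 3 L-HE tanks, from 1.77 to 2.15. The line difference of tank means, F minus L on all arrays, was 0.37 for delta-6 desaturase (exact p = 0.33). It was 0.32 for 6-PGD (exact p = 0.275) and −0.12 for ECHA (exact p = 0.79). Without membrane 59 the 3 values were 0.61 (p = 0.015), 0.42 (p = 0.15) and 0.15 (p = 0.38), all exact and unadjusted. Only that of delta-6 desaturase was under 0.05, and limma on the tank means of all arrays called no clone for line.

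**Figure D3:**
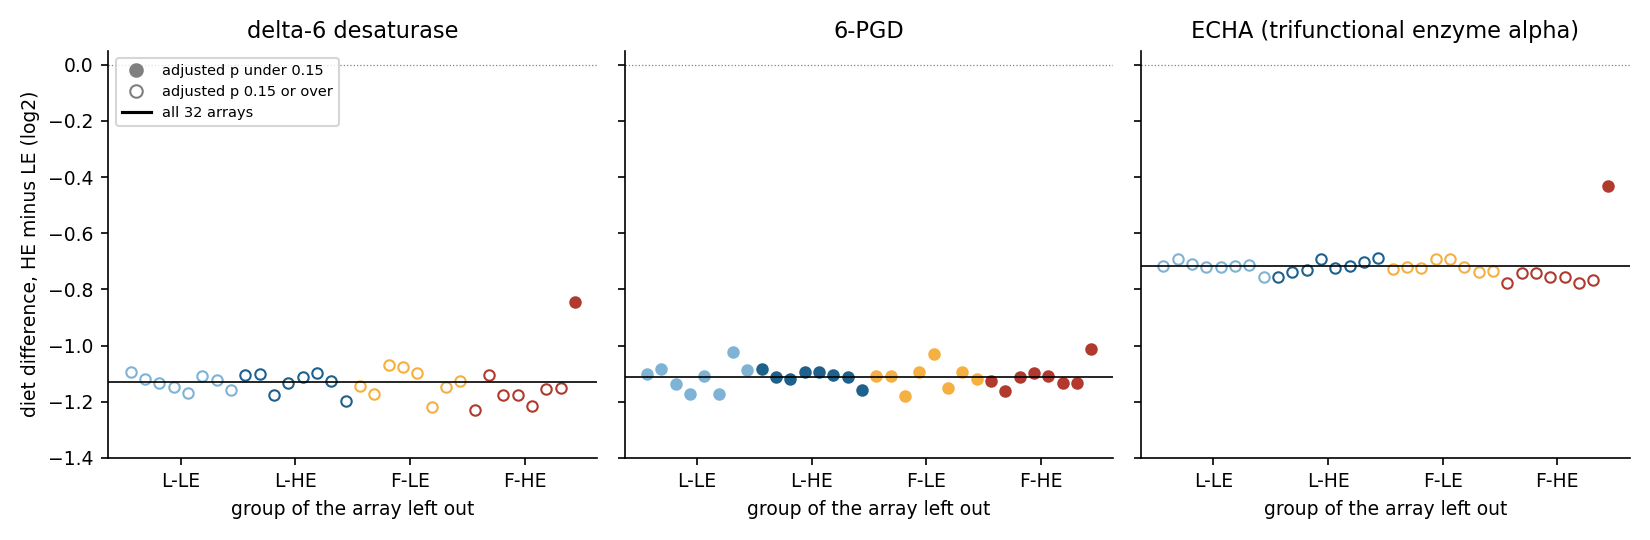
Diet difference (HE minus LE over both lines, log2) when each of the 32 arrays is left out in turn, grouped by the array left out. Filled points passed the adjusted p of 0.15, and the line is the value on all arrays. For delta-6 desaturase and ECHA the last F-HE point, membrane 59, stands apart at −0.85 and −0.43 and is the single filled one.

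The balance of both sides was then followed within livers, as the difference in log2 signal between a synthesis member and ECHA on the same array. This difference does not depend on the array median, but it does depend on how widely the signals of an array spread. The interquartile range of log2 signals was 1.80, 1.93 and 1.62 on membranes 53, 56 and 68 of L-LE, and 2.31 on the narrowest L-HE array. The level of the within-liver difference has no meaning of its own, so only its change between groups is given. No test was made because the pairs were chosen with results of these data known. Delta-6 desaturase minus ECHA averaged −0.45 ± 0.65 (SD, n = 8) in F-LE and −0.78 ± 0.50 in F-HE. The lean line averaged −0.79 ± 0.33 on LE and −1.28 ± 0.74 on HE. Over both lines it was lower on HE by −0.41 (SE 0.20), and the change was −0.49 (SE 0.29) in L and −0.34 (SE 0.29) in F. Membrane 59 hardly moved it, since both clones were low there, and without it the change was −0.42 (SE 0.21). Between lines, delta-6 desaturase minus ECHA was higher in F by 0.42 (SE 0.20) over both diets, and by 0.41 (SE 0.21) without membrane 59.

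6-PGD minus ECHA averaged −1.28 ± 0.53 (SD, n = 8) in F-LE and −1.38 ± 1.12 in F-HE. The lean line averaged −1.47 ± 0.74 on LE and −2.15 ± 0.57 on HE. Membrane 59 was at 1.26, above all other livers, where ECHA lay further below its group than 6-PGD did. Without it the F-HE mean was −1.76 ± 0.36 (n = 7). The change on HE over both lines was −0.39 (SE 0.27) on all arrays and −0.58 (SE 0.20) without membrane 59. In F alone it went from −0.10 (SE 0.39) to −0.48 (SE 0.29), and in L it was −0.68. The highest L-LE livers were membranes 56 (−0.28) and 53 (−0.63), both with a narrow spread of signals. With quantile normalization, which evens out the spread, the change on all arrays was −0.76 (SE 0.41) in L and −0.05 (SE 0.41) in F. An HE liver had the lower difference in 182 of 240 pairs without membrane 59. In each line the estimated change was below 0 for both synthesis members relative to ECHA, while the ranges of the groups overlapped. For 6-PGD in F it was smaller than its SE on all arrays and with quantile normalization, so its sign was not settled there. The difference between delta-6 desaturase and 6-PGD changed with diet by −0.02 (SE 0.31), and by 0.17 (SE 0.26) without membrane 59, so its sign was not settled. Between lines, 6-PGD minus ECHA was higher in F by 0.48 (SE 0.27) over both diets, and by 0.29 (SE 0.20) without membrane 59.

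**Figure D4:**
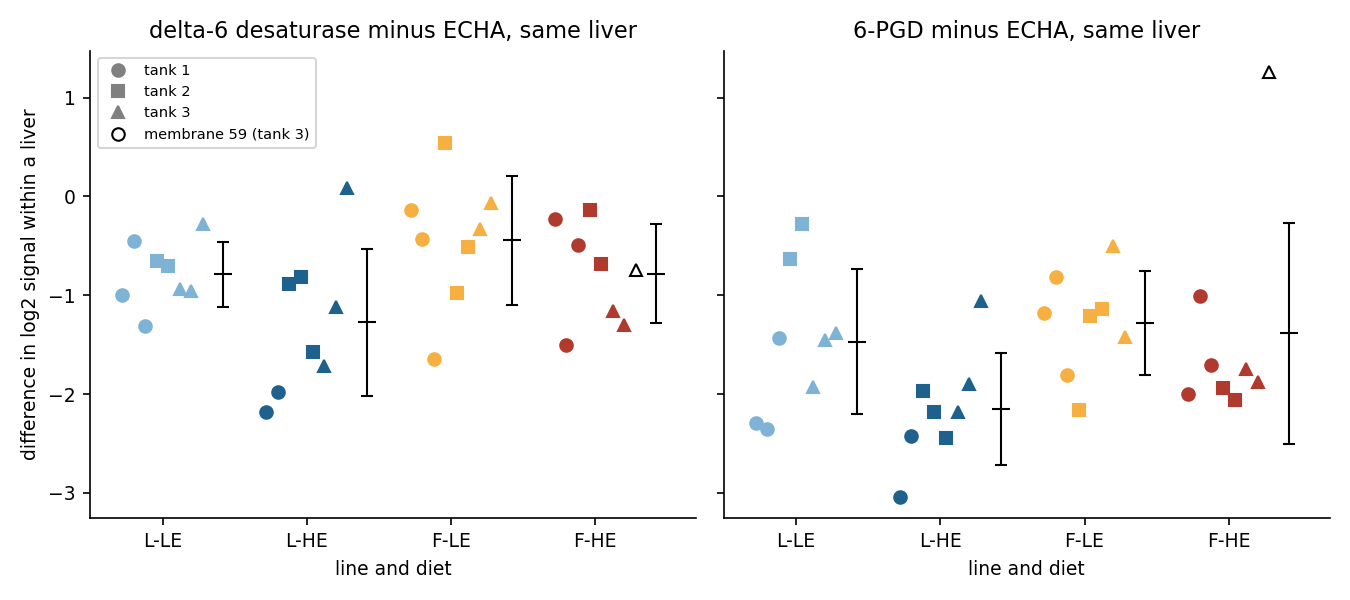
Difference in log2 signal within a liver, delta-6 desaturase minus ECHA and 6-PGD minus ECHA, by line and diet (8 livers per group). Marker shapes are tanks, the open marker is membrane 59 and black bars are mean ± SD. Membrane 59 lies inside its group on the left and at 1.26, above all other livers, on the right.

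Liver by liver, no relation between the 3 clones passed once membrane 59 was left out. Deviations from the group means were correlated over livers, with livers permuted within groups for p (100000 resamples, two-sided). Delta-6 desaturase and ECHA gave a Pearson r of 0.81 over 32 livers (permutation p = 0.0325, adjusted over 3 pairs 0.0442) and a Spearman rho of 0.41 (permutation p = 0.0461, adjusted 0.125). Over the 31 livers without membrane 59, r was 0.12 (permutation p = 0.522) and rho 0.10. 6-PGD and ECHA gave r = 0.47 (permutation p = 0.0442) and rho = 0.28 on all arrays, and r = 0.07 and rho = 0.09 without membrane 59. Delta-6 desaturase and 6-PGD gave r = 0.44 (permutation p = 0.0411) and rho = 0.23, and then r = 0.10 and rho = 0.07. Without the 2 livers farthest from the median of the first clone, always membrane 59 with membrane 8 or 56, r was between 0.05 and 0.10. On percentile ranks within each array, delta-6 desaturase and 6-PGD gave r = 0.65 (permutation p = 0.0159, adjusted 0.0477) and rho = 0.47 (permutation p = 0.00406, adjusted 0.0122) over 32 livers. Without membrane 59 these were r = 0.19 (permutation p = 0.238) and rho = 0.24 (permutation p = 0.181), so no pair passed on either scale without that liver.

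Within single groups of 8 livers, the signs differed. Delta-6 desaturase and ECHA had r = −0.50 in L-HE, 0.48 in L-LE and 0.41 in F-LE. The F-HE value was 0.96 (exact permutation p = 0.0240) on all arrays and 0.39 without membrane 59 (n = 7). Delta-6 desaturase and 6-PGD had r = 0.81 in L-HE (exact permutation p = 0.0133) and −0.69 in F-HE without membrane 59 (n = 7, exact p = 0.0754). Of 12 such coefficients on all arrays none passed after adjustment, the lowest adjusted p being 0.144. For comparison, the correlation of delta-6 desaturase with the other 7762 clones without membrane 59 had a median of −0.01, and 23.2% of them were above its r with ECHA.

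**Figure D5:**
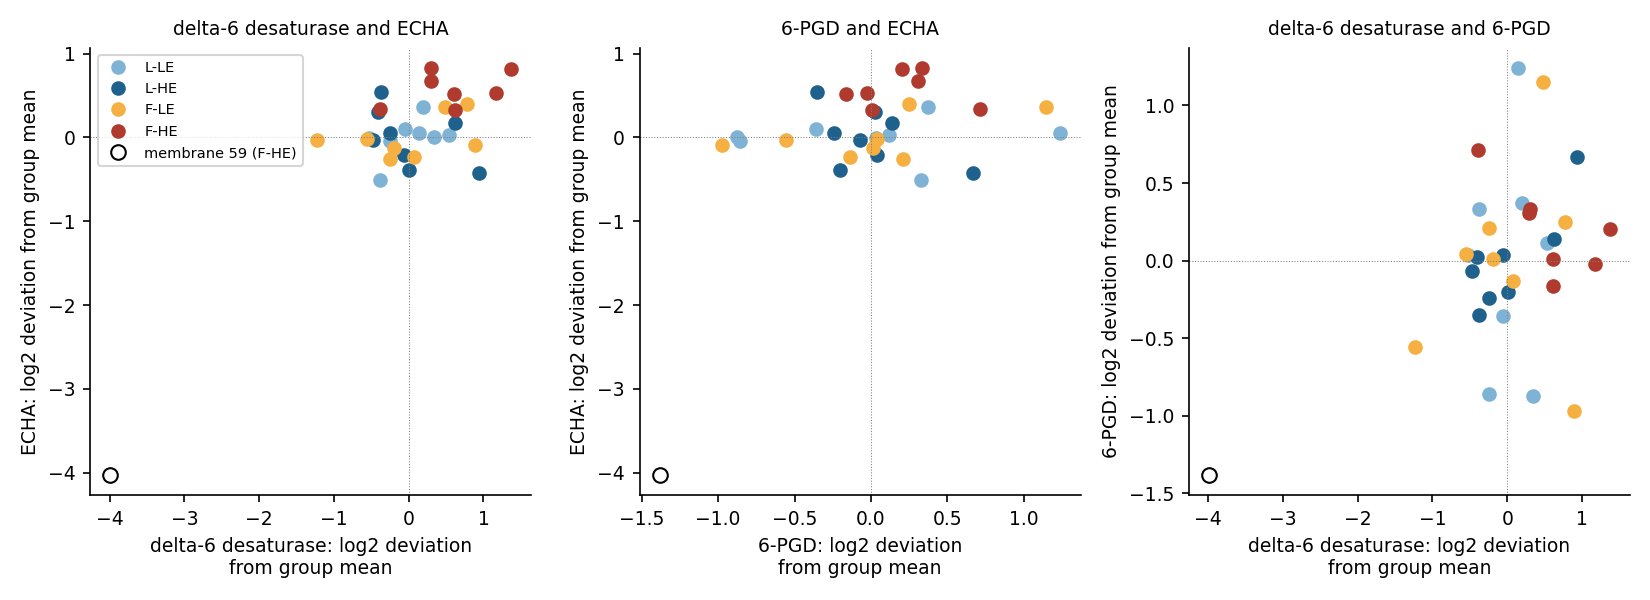
Deviation of each liver from its group mean (log2) for the 3 pairs of clones, coloured by group, with membrane 59 as the open marker. Membrane 59 lies about 4 units below the mean for delta-6 desaturase and ECHA. The group means drawn here include membrane 59, so the other F-HE livers are shifted upward. With group means taken without it, r over the other 31 livers was between 0.07 and 0.12.

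Of the other genes of these pathways, 3 clones on the synthesis side and 2 on the oxidation side carried a name in the additional files. On the synthesis side were matches to a 3-oxoacyl-acyl carrier protein reductase (FABG) and a malonyl transacylase (FABD), which act in fatty acid chain building, and cytosolic malate dehydrogenase (MDHC). The diet difference was 0.41 (log2, SE 0.13, limma adjusted p = 0.736) for FABG, 0.02 for FABD and 0.02 for MDHC. On the oxidation side, the nonspecific lipid-transfer protein (NLTP), whose gene also encodes a peroxisomal thiolase in mammals, was at 0.00, and a mitochondrial acetate-CoA ligase (ACS2L) at −0.18, which became −0.15 and −0.25 without membrane 59. With the members, 1 of 5 synthesis clones and 0 of 3 oxidation clones were called lower on HE and none higher, and without membrane 59 these were 2 of 5 and 1 of 3. In each case the called clones were the members. The median difference was 0.02 over the synthesis list, −0.18 over the oxidation list and −0.01 over all tested clones.

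Between lines none of the 8 clones was called, and their median differences were 0.20 for synthesis and 0.18 for oxidation, beside 0.00 over all clones. Among the checks for other cells, parvalbumin (PRVA), a calcium buffer of fast muscle, was called lower on HE (−0.53, SE 0.12, adjusted p = 0.0709) and titin was not (−0.31). Without membrane 59 parvalbumin was at −0.54 (adjusted p = 0.0301) and titin at 0.06. The summed level of both muscle clones (log2) ran from 4.88 to 5.28 in F-LE and from 3.92 to 5.02 in F-HE, where the lowest was membrane 59. The lean line ran from 5.06 to 5.40 on LE and from 4.63 to 5.21 on HE. Of the 11 hepatocyte clones 1 was called lower on HE, LECT2 (−1.05, adjusted p = 0.146), a protein secreted by the liver, and without membrane 59 it was at −0.92 (adjusted p = 0.0924). The median diet difference of the 11 was −0.27 on all arrays and 0.03 without membrane 59. The part of these differences in the members' values was not tested.

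The clones most like each member over the 32 livers were sought by Spearman rho among all tested clones. Named clones are those the study had called, so the likeness partly repeats the shared diet difference. For delta-6 desaturase the first 3 were matches to PKHA5, a pleckstrin homology protein (rho = 0.79), to GPR4, a proton-sensing receptor in mammals (0.77), and to THIC, the cytosolic acetyl-CoA acetyltransferase that opens the route to cholesterol (0.77). Without membrane 59 their rho was 0.77, 0.75 and 0.74, and a clone that shares the identifier prefix 1RT28 with delta-6 desaturase was closer (0.79). The 23 clones with that prefix had a median rho of 0.05 with it. PKHA5, GPR4 and THIC were all called lower on HE, THIC by −0.93 (log2, SE 0.20, limma adjusted p = 0.0379). For 6-PGD the closest clone was the unnamed 1RT40K19_A_F10 (0.77), followed by the unnamed 1RT114A17_A_A09 (0.75 over 24 livers) and a match to an uncharacterised archaeal protein (Y041, 0.74). Among named clones came THIC again (0.74) and acetylcholinesterase (ACES, 0.69). THIC was therefore among the 3 closest named clones of both synthesis members.

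ECHA had closer companions, none of them shared with the other members. FA32A (1RT84M12_C_G06) reached rho = 0.90, MYCBP (1RT85C01_A_B01), a binding partner of c-Myc, 0.89, and the unnamed 1RT117O05_A_H03 0.88, all above 0.86 without membrane 59. Among named clones ZN403 followed at 0.72. On HE these were at −0.51, −0.66, −0.79 and −0.77 (log2), and none was called on all arrays. Without membrane 59 MYCBP was called (−0.45, SE 0.09, adjusted p = 0.0129), as was 1RT117O05_A_H03 (−0.52, adjusted p = 0.0231). The MYCBP clone shares the identifier prefix 1RT85 with ECHA. The 20 clones with that prefix had a median rho of 0.11 with ECHA without membrane 59, and the other clones 0.02. Of the members, 6-PGD ranked 14th for delta-6 desaturase (rho = 0.63) and ECHA 65th (0.52).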

How the data were processed

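Liver RNA of single fish was labelled with 33P and hybridized to nylon cDNA membranes. The authors quantified spots, excluded those with an oligonucleotide signal under 3 times background, corrected each spot for its DNA, divided by the array median and took logarithms. The deposited values are log10, the base of the ratio formula in the authors' methods. A bare 0 marks an excluded spot (41354 cells) and was treated as missing. Values were converted to log2. Livers were grouped by title. Clones with at least 5 values per group were fitted with limma 3.58.1 in R 4.3.3, 1 mean per group, adjusted over 7763 clones and called under 0.15. Single comparisons used two-sided exact permutation tests (Python 3), over livers and over tanks. p-values over livers leave the tank out of account, and the number of arrays limits the precision. Arrays had 7613 to 8134 clones measured. The limma step was tested on simulated data.

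Members, pathway lists and comparisons were chosen with earlier results of these data known. Named clones are the members, the pathway lists, and the 3 closest clones by Spearman rho among all and among named clones. Alternatives were leaving out membrane 59 or each array, quantile normalization, re-centring, clones measured everywhere, variance trend, tanks as block or mean, array weights, other thresholds, ranks and medians. Leaving out 6 arrays of low correlation, quantile normalization in the exact tests, and relations on ranks without membrane 59 were added after seeing the data.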

Additional observations from a re-analysis of the deposited data

Results flagged for a closer look

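Of 24 sets of 8 livers (3 clones and 3 within-liver differences in 4 groups), 6 held a liver whose gap to its nearest neighbour was large for the range of the set by Dixon's criterion, which chance passes in about 1 of 20 sets. Membrane 59 accounted for 4 of them. It was the lowest F-HE liver for delta-6 desaturase (−1.32, next 2.29), for 6-PGD (0.69, next 1.91) and for ECHA (−0.57, next 3.78). It was the highest for 6-PGD minus ECHA (1.26, next −1.01). In percentiles of its own array, delta-6 desaturase was at 10.8 there, ECHA at 31.9 and 6-PGD at 69.5. Membrane 53 was the lowest L-LE liver for ECHA (3.82, next 4.29), and membrane 5 was the highest F-LE liver for delta-6 desaturase minus 6-PGD (2.70, next 1.36).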

How the results depend on the processing

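Of 862 alternative values of 38 results, 801 kept their direction and their side of the threshold. Leaving out membrane 59 was counted both as a setting of its own and among the single arrays. The share kept differed by result, and the limma call of 6-PGD in F kept 4 of 18. The diet difference of 6-PGD was called under each alternative except means per tank (−1.21, adjusted p = 0.288), and it lay between −1.18 and −1.01 with any 1 array left out. Without the 6 arrays of low correlation it was −0.82 over both lines (limma adjusted p = 0.0217) and −0.60 in the L line (limma adjusted p = 0.815). Delta-6 desaturase became called for diet without membrane 59 (−0.85), with array weights (−0.86), without the 6 arrays of low correlation (−0.94) and by the two-way analysis of variance at an unadjusted p of 0.00276 (−1.13), and lay between −1.23 and −0.85 with 1 array left out. ECHA became called for diet without membrane 59 (−0.43), with array weights (−0.52) and without the 6 arrays (−0.48), and lay between −0.78 and −0.43. Its line difference turned positive without membrane 59 (0.13), with array weights (0.088) and without the 6 arrays (0.10), and lay between −0.22 and 0.13. With array weights, membrane 59 had a weight of 0.03.

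Within groups, the limma call of 6-PGD in F was lost without membrane 59 (−1.10) and with only the 16 arrays compared (−1.30). Leaving out any of 12 of the 16 arrays also ended it (−1.44 to −1.10 and adjusted p from 0.0782 to 0.416 over all 16). The call was lost too with quantile normalization (adjusted p = 0.182), re-centring (0.151) and variance trend (0.172). Tank number as a fixed block (0.164) and means per tank (0.459) likewise ended it. It held with clones measured everywhere (0.129), tank as a random block (0.134), array weights (0.00569) and without the 6 arrays of low correlation (0.0979). Settings of the last 3 sentences were not among the 18 alternatives counted for this result. Delta-6 desaturase between lines on HE turned positive without membrane 59 (0.43) and as a difference of medians (0.47), and lay between −0.33 and 0.43. On LE its exact test was lost with quantile normalization (0.50) and on percentile ranks (1.13 percentile points), and lay between 0.53 and 0.83 with 1 array left out (exact p from 0.00451 to 0.0743). The same settings ended the ECHA line call on LE (0.23 and 0.45 percentile points). They gave a call, which after adjustment held on percentile ranks only, for ECHA by diet in L (−0.35 and −0.91 percentile points). With 1 array left out the latter lay between −0.32 and −0.18, passing the exact test without membrane 53 (p = 0.0387) or 23 (p = 0.0336), and 6-PGD between lines on LE between 0.34 and 0.68. The relations across livers fell without membrane 59 to r of 0.12 (delta-6 desaturase and ECHA), 0.067 (6-PGD and ECHA) and 0.099, and without the 2 farthest livers to 0.073, 0.053 and 0.10. On percentile ranks they were 0.98 and 0.64 (adjusted permutation p = 0.0524) and 0.65 (adjusted 0.0477), and on ranks without membrane 59 they were 0.044, 0.093 and 0.19. The causes were not tested. No paired analysis was possible because liver numbers are not shared between groups.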
